A study of Mus musculus with 18 samples.

Results

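The genes described here encode 10 extracellular matrix proteins grouped as matricellular: the tenascins Tnc and Tnn, osteopontin (Spp1), periostin (Postn), the thrombospondins Thbs1 and Thbs2, Sparc, the spondins Spon1 and Spon2, and fibronectin (Fn1). They are 10 of the 32285 genes counted, all 10 were found by symbol in each of the 10 mRNA libraries, and they were chosen with the expanded-against-control results of these data in view. Their differences between the arms are therefore given as measured values with standard errors, without p-values, and the calls made on them are read as a description.

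Skin of mice was dissociated and sequenced as single cells with a droplet-based 3′ assay that counts each mRNA molecule by a unique molecular identifier (UMI). Every mouse in both arms was operated on: the back skin was incised close to the tail and a passage was opened under the skin to the neck. In the expanded arm a hydrogel that acts as a tissue expander was stitched in near the neck, and the control arm had the operation without the hydrogel. Each arm had 5 libraries, from day 1 (rounds 1 and 2 of sequencing), day 2 (rounds 1 and 2) and day 4 (round 1). All live cells were taken, with no cell type selected. The mice of an arm in a round were pooled in 1 tube, so a library is the replicate here, and p-values measure only the spread between these libraries, which mixes animals with preparation. Strain, age and sex are not given in the sources used here, and no arm without surgery is among the samples.

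Matricellular proteins are secreted into the extracellular matrix, where they mainly modulate adhesion, growth factor activity and matrix assembly through cell surface receptors such as integrins and syndecans, and less by bearing load. Many of them are low in resting adult tissue and are known to be induced in wounds, fibrosis and mechanically loaded tissue. Fibronectin is itself a structural adhesive glycoprotein, and SPARC and periostin bind collagen.

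Libraries held between 17726739 and 75470722 gene UMIs. After filters on quality and doublets, 45480 cells remained (28439 control and 17041 expanded), with a median of 6440.5 to 12847.5 UMIs per kept barcode across libraries. Clustering without the members gave 34 clusters, of which 27 carried enough markers to be named into 17 classes and 7 with 6672 cells stayed unnamed. The fibroblast-like class had 12113 cells in 7 clusters, and none of its 8 marker genes was at 0 in either arm. Unnamed clusters are called by their leading genes. A cluster led by Coch and Fmod and one led by Lrrc15 and Acan, with Pdgfra as a marker in both, scored highest for the fibroblast list and stayed unnamed. Tnn and Postn are among the 10 leading genes of the latter, and Tnc among those of a fibroblast-like cluster led by Igfbp2 and Mme, so their high levels there describe those clusters. Of 54812 barcode sequences, 361 occurred in at least 2 libraries. Levels below are CPM (UMI counts scaled to the same total in each sum) of the counts summed over the cells of a class in a library, and log2 fold changes are expanded over control from edgeR with day as a covariate, with the standard error (SE). CPM values are compared within a gene and not between genes.

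Of the 10 genes, Tnc had the largest difference between the arms in fibroblast-like cells, and Spp1 in macrophage or monocyte-like cells. The DNA just upstream of both is therefore shown. The sequences are the 250 bases before the most upstream start that RefSeq lists (build GRCm38.p6), written 5′ to 3′ on the gene's strand, with the letters TATAAA in capitals.
Tnc (chr4:64047016-64047265, minus strand): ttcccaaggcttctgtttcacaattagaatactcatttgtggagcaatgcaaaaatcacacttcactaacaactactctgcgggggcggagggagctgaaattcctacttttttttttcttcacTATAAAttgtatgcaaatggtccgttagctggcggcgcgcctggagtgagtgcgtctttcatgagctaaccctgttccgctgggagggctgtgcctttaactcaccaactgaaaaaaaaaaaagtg
Spp1 (chr5:104434861-104435110, plus strand): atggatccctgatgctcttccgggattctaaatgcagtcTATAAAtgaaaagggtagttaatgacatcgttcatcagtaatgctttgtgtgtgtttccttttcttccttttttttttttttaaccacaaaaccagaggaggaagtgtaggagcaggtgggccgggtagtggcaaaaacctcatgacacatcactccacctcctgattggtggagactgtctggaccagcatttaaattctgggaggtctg
The TATAAA match began 126 bases before the start of Tnc and 211 bases before that of Spp1, and RefSeq lists 2 starts for each gene. Of 32851 mouse promoter windows of 250 bases, 12.4% hold TATAAA on either strand. Neither window holds TGANTCA, the letters of an AP-1 site (present in 6.75% of all windows), or GGAATG, the letters of a TEAD site (12.6%). These matches describe letters in the window only. RefSeq windows were matched for 6 of the 10 genes.

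Where each gene was transcribed differed widely. Fibroblast-like cells held 92.4% of all Sparc UMIs in the control libraries and 72.4% in the expanded ones, 90.4% and 76.8% of Thbs2 UMIs, and 92.7% and 62.2% of Spon2 UMIs. Tnn came mainly from other cells: the cluster led by Lrrc15 and Acan, the cluster led by Coch and Fmod and dermal papilla-like cells, the mesenchyme at the base of hair follicles, held 42.4%, 25.8% and 23.7% of its control UMIs. Postn was spread over fibroblast-like cells, both of those unnamed clusters and basal keratinocyte-like cells. The largest source of Spp1, Fn1 and Thbs1 in the expanded libraries was not the largest in the control ones. Macrophage or monocyte-like cells held 7.90% of control Spp1 UMIs and 47.8% of expanded ones, and 46.1% of expanded Fn1 UMIs and 36.5% of expanded Thbs1 UMIs. These shares also depend on how many cells of each class a library caught. Fibroblast-like cells numbered 10219 in the control libraries and 1894 in the expanded ones, and macrophage or monocyte-like cells 2607 and 2399.

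**Figure D1:**
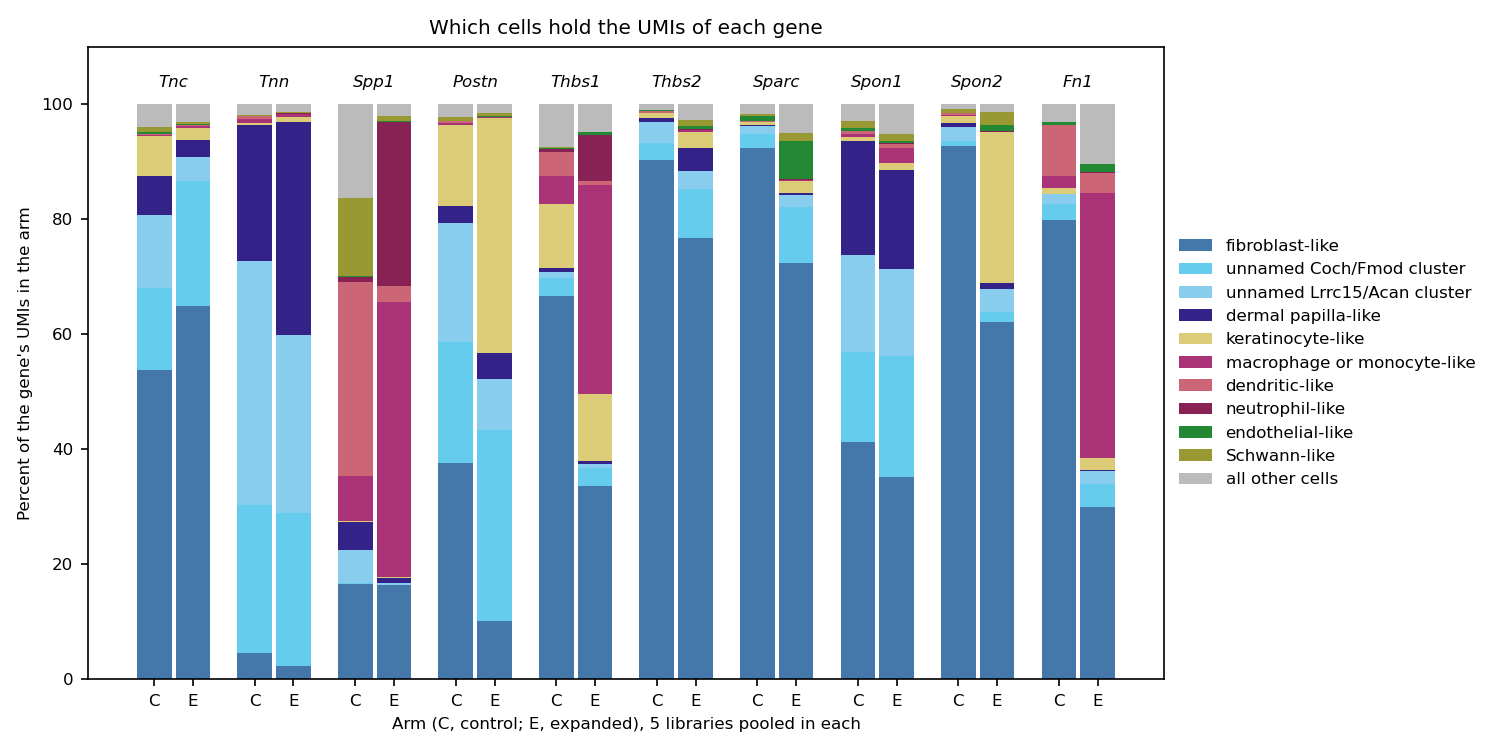
Stacked bars give, for each gene, the percent of its UMIs that came from each cell class, with the control arm (C) and the expanded arm (E) side by side and the 5 libraries of an arm pooled; the 3 keratinocyte-like classes are joined. Fibroblast-like cells held 79.8% of Fn1 UMIs in the control arm and 29.9% in the expanded arm, while macrophage or monocyte-like cells held 46.1% in the latter.

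In fibroblast-like cells 6 of the 10 genes passed the call (edgeR quasi-likelihood test, Benjamini-Hochberg adjusted p below 0.05 over all genes): Tnc, Spp1 and Spon1 were higher with expansion, and Spon2, Fn1 and Sparc were lower. Of all 13496 genes tested there, 32.7% passed, 16.2% higher and 16.4% lower. Among macrophage or monocyte-like cells, 8 of the 10 genes had enough counts to be tested and 6 passed: Spp1, Thbs1, Fn1 and Tnc higher, Sparc and Postn lower. Each fit that left out 1 library called 4 to 5 members, with Spp1, Fn1 and Sparc called in all. Without the control library of day 1 round 1, the 4 called included a member outside these 6. The Thbs1 call was lost without the control library of day 1 round 1, day 1 round 2 or day 2 round 1, or either day 4 library. The Tnc call was lost without the control library of day 1 round 1 or day 2 round 2, the expanded library of day 1 round 1 or day 2 round 1, or either day 4 library. Postn lost its call without the control library of day 1 round 1 or day 2 round 1, or the expanded library of day 1 round 1, day 1 round 2 or day 2 round 2. The share of all 10978 genes that passed there was 24.1%, with 10.9% higher and 13.2% lower. In the cluster led by Coch and Fmod 4 of 10 passed, Tnc higher and Spon2, Fn1 and Sparc lower, against 11.2% of 10846 genes (5.46% higher, 5.76% lower). Since the genes were chosen on this contrast, nothing is read from the gap between these counts and the background. With a block for each pair of libraries of 1 day and round, all 8 genes tested in macrophage or monocyte-like cells passed, adding Spon1 (log2 fold change 1.27) and Thbs2 (-1.04), and Thbs1 (-0.66) was added in the cluster led by Coch and Fmod.

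**Figure D2:**
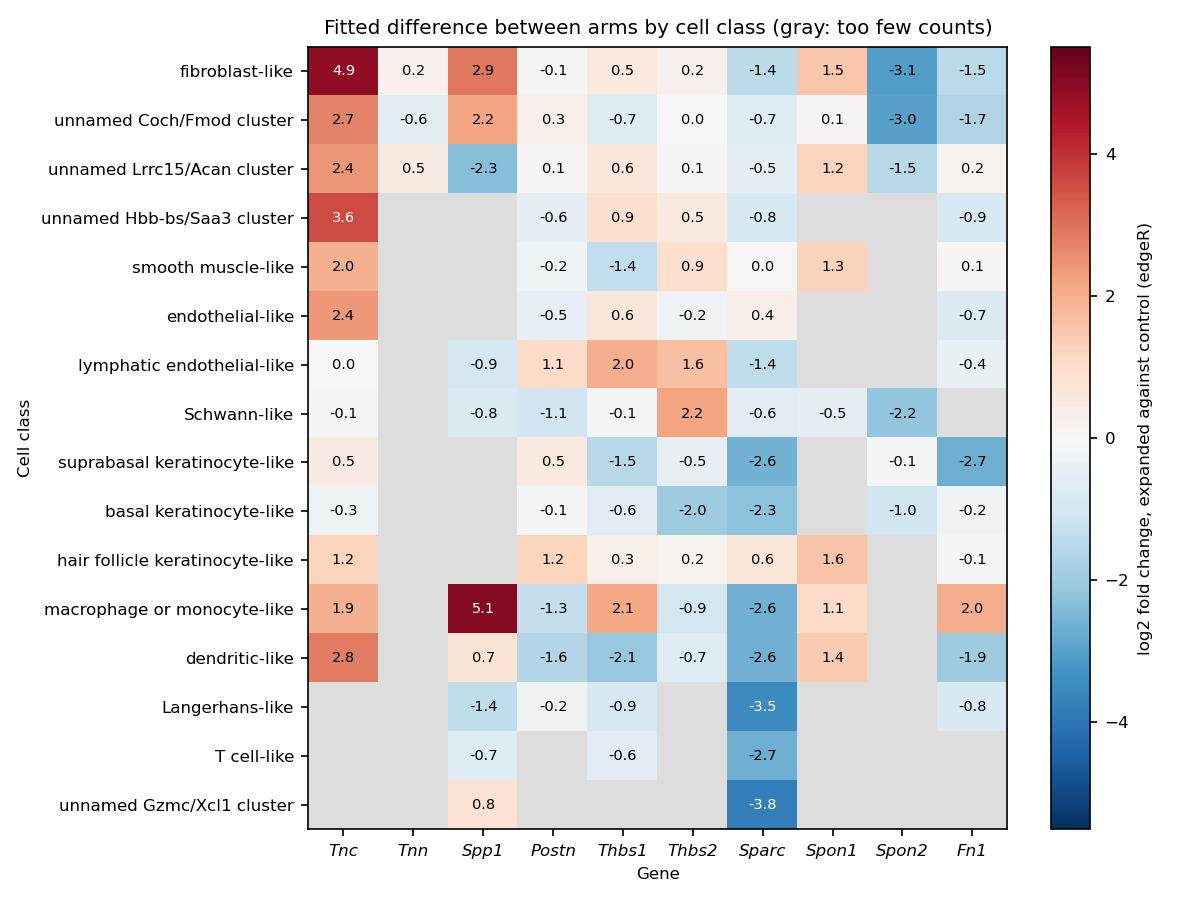
The heat map gives the log2 fold change of expanded over control libraries from edgeR for each of the 10 genes (columns) in 16 cell classes or unnamed clusters (rows); gray cells had too few counts to be tested. Tnc was higher in the mesenchymal rows, by 4.88 on the log2 scale in fibroblast-like cells, and Sparc had negative values in most rows.

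Both large classes differed in make-up between the arms, which bears on every level given for them. The fibroblast-like cells of the control libraries lay mainly in a cluster led by Col1a2, Col1a1 and Cpz (35.4% of the class, against 3.70% in the expanded libraries), and those of the expanded libraries in a cluster led by Igfbp2 and Mme (49.0%, against 15.7%). The latter share was 11.4% to 18.3% in the control libraries and 37.4% to 65.6% in the expanded ones. A small cluster led by Apod and Gpc3 held 2.64% and 14.7%. Control macrophage or monocyte-like cells lay mainly in a cluster led by C1qb, C1qc and Folr2 (83.1%, against 8.88%), and expanded ones in a cluster led by Chil3, Msr1, Ly6c2 and Arg1 (90.7%, against 11.2%). The share of the latter varied widely, from 2.56% to 41.5% over the control libraries and from 39.1% to 99.3% over the expanded ones. A difference in a class level can therefore hold both a shift between clusters and a difference within them, and values within single clusters are given where cells allow.

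Tnc (chr4:63959785-64047015, minus strand, build GRCm38) encodes tenascin C, a large hexameric matrix glycoprotein of embryonic and wounded dermis. In fibroblast-like cells Tnc stood at 12.1, 21.9, 50.2, 242.0 and 103.9 CPM in the control libraries of day 1 rounds 1 and 2, day 2 rounds 1 and 2 and day 4, in that order. The expanded libraries had 558.5, 1961, 2569, 2951 and 2605 CPM in the same order. The lowest expanded library, day 1 round 1, was above the highest control library, day 2 round 2, and the expanded library was higher in 5 of 5 pairs of the same day and round. The means were 86.0 ± 94.2 CPM (SD, n = 5) and 2129 ± 947 CPM (SD, n = 5), with a log2 fold change of 4.88 (SE 0.55). Leaving out 1 library at a time kept it between 4.37 and 5.47, the highest being without the control library of day 2 round 2.

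**Figure D3:**
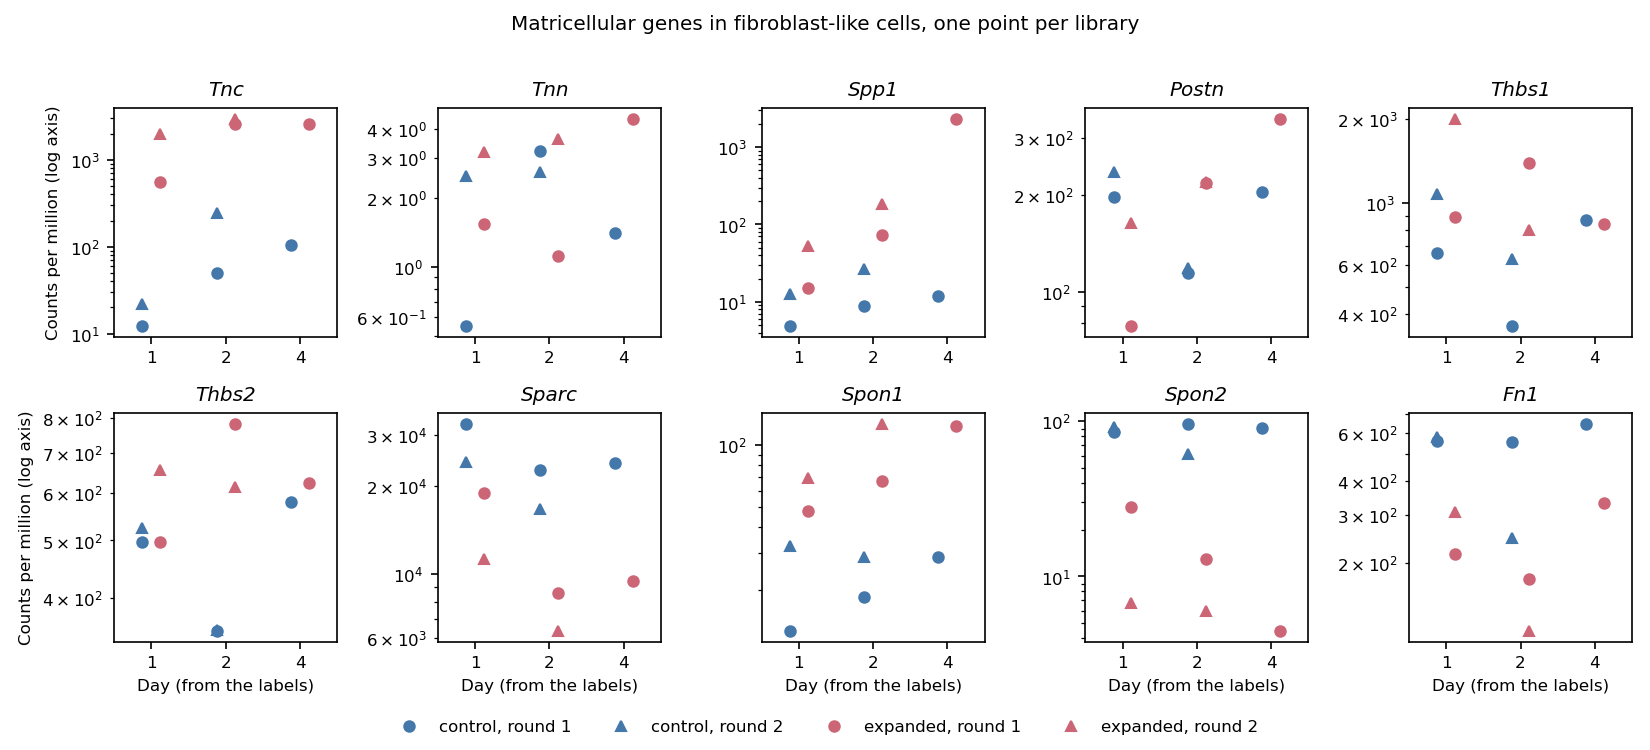
Each panel plots 1 gene's level in fibroblast-like cells (CPM, log axis) against the day, with 1 point per library, blue for control and red for expanded, circles for round 1 and triangles for round 2. Tnc, Spon1 and Spon2 show no overlap between the arms, while Tnn, Spp1, Postn, Thbs1, Thbs2, Sparc and Fn1 do.

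Tnc was also higher within the fibroblast-like clusters described next, and its levels in the other clusters of the class are not given here. In the cluster led by Igfbp2 and Mme the control libraries ran from 44.3 to 618.5 CPM of Tnc (mean 233 ± 234, SD, n = 5) and the expanded ones from 1060.1 to 4167 CPM (mean 3040 ± 1186, SD, n = 5), without overlap. A fit on that cluster alone gave a log2 fold change of 4.09 (SE 0.45). That cluster held 6405 of 7658 and 12928 of 14200 Tnc UMIs of the expanded fibroblast-like libraries of day 1 rounds 1 and 2. On day 2 it held 14657 of 16213 and 4547 of 4911, and on day 4 10798 of 11161. Control libraries in the same order had 290 of 553, 192 of 517, 219 of 422, 1917 of 3732 and 1332 of 2732. Mean Tnc in the cluster led by Col1a2 and Col1a1 was 69.3 CPM over 5 control libraries and 558 CPM over the 2 expanded libraries with at least 20 cells. For that led by Apod and Gpc3, it was 1.53 and 403 CPM (n = 4 each).

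Outside the fibroblast-like class, Tnc was higher in other mesenchymal cells and, from low levels, in some further classes. The cluster led by Coch and Fmod had 139, 155.5, 122, 278 and 148 CPM of Tnc in the control libraries in that order. Its expanded libraries had 848, 1276, 1503, 1167 and 945 CPM in the same order, all above every control library (log2 fold change 2.74, SE 0.19). Tnc in the cluster led by Lrrc15 and Acan ran from 72.5 to 453 CPM in control and from 614 to 1573 CPM in expanded libraries, again apart (2.44, SE 0.33). Smooth muscle-like cells went from 51.2 ± 20.7 to 206 ± 97.0 CPM (SD, n = 5 each) without overlap, and a cluster led by Hbb-bs and Saa3 from 100 ± 91.4 CPM (n = 5) to 1159 ± 523 CPM (n = 4). The latter is shallow, with a median of 1546 UMIs per cell, and its identity is unsettled. It scored highest for the erythrocyte list, with Hbb-bs as its 1 marker, and next for the fibroblast list. Dermal papilla-like cells had 174 ± 91.4 CPM (SD, n = 3) and 642 ± 321 CPM (SD, n = 4). Endothelial-like cells went from 2.65 ± 2.16 to 16.6 ± 13.5 CPM of Tnc (SD, n = 5 each), higher in 4 of 5 pairs (2.38, SE 0.55), a call that was lost without either day 4 library. Melanocyte-like cells went from 4.78 ± 4.24 CPM (SD, n = 4) to 20.1 ± 0.609 CPM (SD, n = 3) without overlap. Their median depth was 3201 UMIs in control and 4503 UMIs in expanded libraries. With each cell thinned to 2000 UMIs, the shares with a Tnc UMI overlapped, at 2.00% ± 1.89 and 2.80% ± 2.10 (SD). Hair follicle keratinocyte-like cells had a log2 fold change of 1.22 (SE 0.33) for Tnc and dendritic-like cells 2.79 (SE 1.03), neither of them called. In basal keratinocyte-like cells it was -0.29 (SE 0.26) and in Schwann-like cells -0.05, with means of 85.6 ± 42.4 and 79.8 ± 84.6 CPM (SD, n = 4 each). Control Tnc levels of the fibroblast-like class overlapped those of the clusters led by Coch and Fmod and by Lrrc15 and Acan. In every control library, though, the fibroblast-like level was below that of the cluster led by Coch and Fmod. At 2000 UMIs per cell, 4.87% of control fibroblast-like cells (highest library 12.0%) had a Tnc UMI. The share in the cluster led by Coch and Fmod was 16.0% (lowest library 12.6%). After expansion the fibroblast-like mean was above that of both clusters, but the SDs overlapped. On day 1 round 1 the expanded fibroblast-like library was below that of the cluster led by Coch and Fmod. The means of the 2 clusters, 1148 and 1194 CPM, did not differ beyond their SDs of 262 and 383.

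The share of cells with at least 1 Tnc UMI gave the same direction. After each cell was thinned to 2000 UMIs, Tnc was found in 4.87% ± 4.74 of control and 45.7% ± 15.5 of expanded fibroblast-like cells (SD over libraries). Without thinning the control share was 9.70%. T cell-like cells, which should lack Tnc, had 0.143% and 1.35%. Median depth was 10976 and 16059 UMIs in control and expanded fibroblast-like cells and 3409 and 4686 UMIs in T cell-like cells, and 200 and 32 fibroblast-like cells under 2000 UMIs were left out. In macrophage or monocyte-like cells Tnc was at 0.567 to 2.69 CPM in control and 2.06 to 11.7 CPM in expanded libraries, from 3 to 5 control and 9 to 120 expanded UMIs per library. After thinning, 0.166% and 0.823% of these cells had a Tnc UMI, against the 0.143% and 1.35% in T cell-like cells, whose mean Tnc level was 2.27 and 5.93 CPM. The expanded share in macrophage or monocyte-like cells was thus at background. Endothelial-like cells had 0.333% and 1.80% and dendritic-like cells 0.150% and 1.01% after thinning, also near the shares in T cell-like cells.

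Tnn (chr1:160085029-160153580, minus strand) encodes tenascin N, also called tenascin W, a tenascin found around hair follicles and in bone. It was nearly silent in fibroblast-like cells, at 0.548 to 3.21 CPM in control and 1.11 to 4.43 CPM in expanded libraries, with overlap. The cluster led by Lrrc15 and Acan had 137, 254, 399, 325 and 116 CPM of Tnn in the control libraries in the order of day and round, and 466, 318, 618.5, 136 and 171 CPM in the expanded ones. These overlapped, with a log2 fold change of 0.49 (SE 0.32). The means in dermal papilla-like cells were 169 ± 82.9 CPM (SD, n = 3) and 363 ± 187 CPM (SD, n = 4), and those in the cluster led by Coch and Fmod were 82.2 ± 18.7 and 57.9 ± 27.0 CPM (SD, n = 5 each; log2 fold change -0.57, SE 0.27). After thinning to 2000 UMIs, 20.5% of control and 29.0% of expanded cells of the Lrrc15 and Acan cluster had a Tnn UMI.

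Spp1 (chr5:104435118-104441050, plus strand) encodes osteopontin, a secreted phosphoprotein that binds integrins and CD44 and is made by activated macrophages. Macrophage or monocyte-like cells of the control libraries had 16.6, 9.52, 54.4, 55.3 and 61.0 CPM of Spp1 in the order of day and round. The expanded libraries had 1083, 3122, 1037, 797 and 695 CPM. Every expanded library was above every control library, and the library of day 1 round 2 was the highest by far. The means were 39.4 ± 24.3 and 1347 ± 1010 CPM (SD, n = 5 each), a ratio of 34.2, with a log2 fold change of 5.05 (SE 0.70).

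The control and expanded macrophage or monocyte-like cells lay in different clusters, as given above. Within the cluster led by Chil3 and Arg1, 2 control libraries had at least 20 cells, at 69.1 and 521 CPM of Spp1, and the 5 expanded libraries ran from 785 to 3573 CPM (mean 1722 ± 1224, SD), all above both. In the cluster led by C1qb and C1qc, Spp1 was at 27.0 ± 19.3 CPM (SD, n = 5) in control and 57.8 ± 59.4 CPM (SD, n = 3) in expanded libraries, with SDs wider than the gap. With cells thinned to 2000 UMIs, 3.01% ± 1.51 of control and 34.4% ± 13.1 of expanded macrophage or monocyte-like cells had a Spp1 UMI. The share in T cell-like cells was 4.93% and 3.77%, so the control share in macrophages was below it and the expanded one above it. Whether T cell-like cells lack Spp1 was not tested. Median depths of macrophage or monocyte-like cells were 6165 and 11879 UMIs, and unthinned shares were 5.81% and 48.0%. Summed neutrophil markers in this class ran from 35.6 to 129 CPM in control and from 348 to 1960 CPM in expanded libraries, and their part in the result was not tested.

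Neutrophil-like cells were the other large source of Spp1, with 28.6% of its UMIs in the expanded libraries. Their levels of Spp1 were 3816, 6738, 3502 and 5418 CPM in the expanded libraries of day 1 round 2, day 2 rounds 1 and 2 and day 4, with 185 to 492 cells each. Only 2 control libraries had at least 20 neutrophil-like cells, at 15.1 and 572 CPM. The expanded library of day 1 round 1 had 19 neutrophil-like cells and no Spp1 UMI among them. After thinning, 37.3% ± 7.20 (SD, n = 4) of expanded neutrophil-like cells had a Spp1 UMI. Some classes went the other way in mean: Langerhans-like cells had 109.7 ± 76.7 and 59.4 ± 73.7 CPM (log2 fold change -1.40, SE 0.36), lymphatic endothelial-like cells 151 ± 141 and 110 ± 142 CPM, and Schwann-like cells 449.5 ± 390 and 220 ± 185 CPM (SD). Of these only the Langerhans-like difference was called. Dendritic-like cells, which held 33.8% of the control UMIs of Spp1, had 87.5 ± 66.8 and 201 ± 155 CPM (SD, n = 5 each), higher in 4 of 5 pairs but not called. Spp1 was also higher in 5 of 5 pairs in suprabasal keratinocyte-like cells and in 4 of 5 in endothelial-like cells, from mean control levels of 0.326 and 0.700 CPM, too low to pass the filter on low counts.

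In fibroblast-like cells Spp1 stood at 4.82, 12.6, 8.80, 26.9 and 12.1 CPM in the control libraries in the order of day and round, and at 14.95, 52.5, 73.0, 182 and 2312 CPM in the expanded ones. The expanded library was higher in 5 of 5 pairs, the arms overlapped because the expanded library of day 1 round 1 was below the highest control library, and the expanded day 4 library stood far above the rest. The log2 fold change was 2.90 (SE 0.79) and was 2.13 without the expanded day 4 library and 2.14 without the control one, since day is in the fit. In the cluster led by Igfbp2 and Mme alone it was 4.09 (SE 1.46), which was not called. Few cells carried these UMIs: of the 9905 Spp1 UMIs in the expanded day 4 fibroblast-like cells, 10 cells held 94.9%, and 45 of 224 cells had any. The UMIs came from the cluster led by Igfbp2 and Mme (54.2%, from 16 cells) and the cluster led by Apod and Gpc3 (45.7%, from 26 cells). Thinned to 2000 UMIs, 1.37% of control and 7.10% of expanded fibroblast-like cells had a Spp1 UMI, against the 4.93% and 3.77% of T cell-like cells. Summed macrophage markers in the fibroblast-like class lay between 19.2 and 148 CPM, against 5510 to 18217 CPM in the macrophage or monocyte-like class. These sums cover the whole class and not the 10 cells alone. Doublets or free RNA from other cells as a part of these UMIs were not tested.

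**Figure D4:**
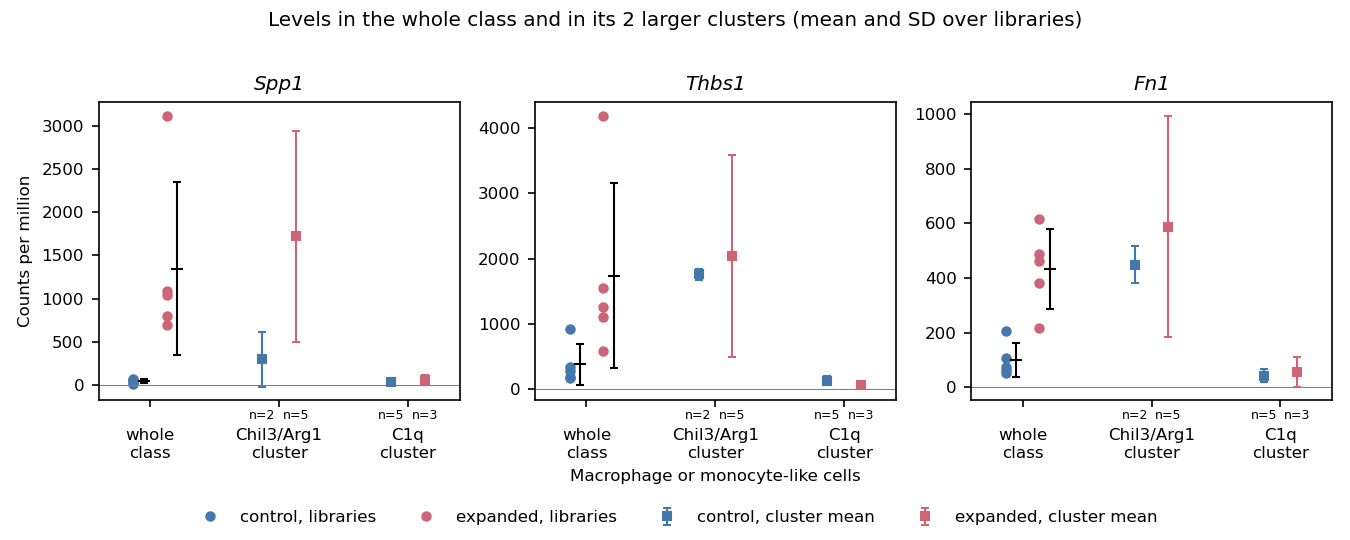
Spp1, Thbs1 and Fn1 levels (CPM) are plotted for the whole macrophage or monocyte-like class, with 1 point per library and bars for mean ± SD, and for its Chil3 and Arg1 cluster (n = 2 control, 5 expanded libraries) and its C1q cluster (n = 5 and 3) as mean ± SD. Thbs1 and Fn1 were near each other in the arms within the Chil3 and Arg1 cluster, whereas Spp1 was 295 CPM in control and 1722 CPM in expanded libraries.

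Postn (chr3:54361109-54391037, plus strand) encodes periostin, a collagen-binding protein of skin and other load-bearing connective tissue. Its level did not stand apart between the arms in its main sources. Fibroblast-like cells had 197, 236, 114, 118 and 204 CPM of Postn in control libraries in the order of day and round and 78.0, 164, 217, 219 and 345 CPM in expanded ones (log2 fold change -0.06, SE 0.32). The sign was not stable: it was 1.16 in the cluster led by Igfbp2 and Mme alone and 0.85 with the cells of the cluster led by Coch and Fmod added. Expanded libraries were below their control pair on both day 1 rounds and above it on day 2 and day 4. The cluster led by Lrrc15 and Acan had 1449 ± 1000 and 1487 ± 589 CPM, the cluster led by Coch and Fmod 968 ± 153 and 1253 ± 507 CPM, and basal keratinocyte-like cells 1206 ± 547 (n = 4) and 1206 ± 446 CPM (SD, n = 5 unless given). After thinning, 73.6% and 75.5% of basal keratinocyte-like cells had a Postn UMI. The log2 fold change of Postn was 1.22 (SE 0.41) in hair follicle keratinocyte-like cells, where the arms overlapped, and -1.06 (SE 0.31) in Schwann-like cells, where all 4 pairs were lower, and neither was called. Its level in macrophage or monocyte-like cells was 2.55 to 23.0 CPM in control and 0.917 to 7.59 CPM in expanded libraries (-1.29), a call whose size depended on the control library of day 1 round 1: without it the value was -0.85. Summed fibroblast markers in that class ran from 353 to 2293 CPM in control and from 63.7 to 373 CPM in expanded libraries, and their part was not tested.

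Thbs1 (chr2:118111876-118127133, plus strand) encodes thrombospondin 1, which activates latent TGF-β and inhibits angiogenesis. The macrophage or monocyte-like class had it at 180.4, 341, 184, 932 and 285 CPM in the control libraries and at 588, 4190, 1261, 1556 and 1113 CPM in the expanded ones, in the order of day and round. Each expanded library was above its control pair, and the arms overlapped because the control library of day 2 round 2 was above the expanded library of day 1 round 1. The log2 fold change of Thbs1 was 2.14 (SE 0.61), 1.32 without the expanded library of day 1 round 2 and 2.72 without the control library of day 2 round 2. Within the cluster led by Chil3 and Arg1, the 2 control libraries had 1701 and 1825 CPM of Thbs1 and the 5 expanded ones 1258 to 4791 CPM, so these overlapped. The C1q cluster had 132 ± 70.5 CPM (SD, n = 5) in control and 61.2 ± 21.4 CPM (SD, n = 3) in expanded libraries. After the same thinning, 13.9% of control and 45.9% of expanded macrophage or monocyte-like cells had a Thbs1 UMI, against 1.55% and 1.68% of T cell-like cells.

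In other cells Thbs1 took either direction. Smooth muscle-like cells had 1219, 1426, 1053.5, 820.1 and 955 CPM of Thbs1 in control libraries and 542, 479.6, 673, 373 and 243 CPM in expanded ones, without overlap (log2 fold change -1.36, SE 0.22). Suprabasal keratinocyte-like cells went from 944 ± 362 to 329 ± 79.4 CPM, also without overlap (-1.53, SE 0.24). Lymphatic endothelial-like cells went the other way, from 73.1 ± 29.6 to 380 ± 339 CPM, higher in 5 of 5 pairs (2.01, SE 0.35). Fibroblast-like cells had 719 ± 269 and 1184 ± 515 CPM (SD, n = 5 each), higher in 4 of 5 pairs, with a log2 fold change of 0.53 (SE 0.29) that was not called. It was lower in all 5 pairs in the cluster led by Coch and Fmod (-0.65, SE 0.22), and dendritic-like cells had -2.06 (SE 0.72), or -1.10 without the control library of day 2 round 2. Neutrophil-like cells carried Thbs1 at 4804 ± 2344 CPM (SD, n = 2) in control and 2808 ± 2501 CPM (SD, n = 4) in expanded libraries, with overlap.

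Thbs2 (chr17:14665500-14694235, minus strand) encodes thrombospondin 2, which lacks TGF-β activation and is made by dermal fibroblasts. Fibroblast-like cells had 497, 524, 353, 354 and 579 CPM of Thbs2 in control and 496, 656, 784, 615 and 625 CPM in expanded libraries. The expanded library was higher in 4 of 5 pairs and the arms overlapped, with a log2 fold change of 0.25 (SE 0.19). Levels in the clusters led by Lrrc15 and Acan and by Coch and Fmod differed by 0.05 and -0.03. In Schwann-like cells Thbs2 stood apart, at 23.8 ± 8.24 and 112 ± 70.0 CPM (SD, n = 4 each) without overlap (log2 fold change 2.15, SE 0.29). Thbs2 was also higher in lymphatic endothelial-like cells, with a log2 fold change of 1.64. Leaving out 1 library at a time kept that value between 1.17 and 1.88. It was lower in basal keratinocyte-like cells (-1.98, SE 0.39), from a low level of 16.7 CPM, a call lost without the control library of day 1 round 1 or 2, the expanded library of day 1 round 1 or 2, or either day 4 library.

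Sparc (chr11:55394500-55423183, minus strand) encodes a collagen-binding glycoprotein needed for fibril assembly in dermis. In fibroblast-like cells it stood at 32804, 24287, 22743, 16690.1 and 23978 CPM in the control libraries in the order of day and round, and at 18951, 11191, 8566, 6333 and 9441 CPM in the expanded ones. All 5 pairs were lower in the expanded library, and the arms overlapped only in that the expanded library of day 1 round 1 was above the control library of day 2 round 2. The means were 24101 ± 5757 and 10896 ± 4830 CPM (SD, n = 5 each), with a log2 fold change of -1.45 (SE 0.21). Within the cluster led by Igfbp2 and Mme it was -1.17, and mean Sparc was also lower in the cluster led by Col1a2 and Col1a1 (29039 and 17931 CPM) and in the one led by Cilp and Mfap4 (16369 and 8352 CPM). Thinned to 2000 UMIs, 99.6% and 96.1% of fibroblast-like cells still had a Sparc UMI. Summed fibroblast markers ran from 70616 to 184133 CPM in control and from 33078 to 85392 CPM in expanded fibroblast-like libraries. Their part in the Sparc difference was not tested.

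Sparc was lower in the cluster led by Coch and Fmod (6065 ± 971 and 3906 ± 507 CPM, SD, n = 5 each; log2 fold change -0.67, SE 0.11). The values were -0.52 (SE 0.14) in that led by Lrrc15 and Acan, where 1 of 5 pairs was higher, and -0.59 (SE 0.17) in Schwann-like cells (5195 ± 503 and 3530 ± 561 CPM, SD, n = 4 each, without overlap), and neither was called. Smooth muscle-like cells had 3598 and 3723 CPM (-0.01), and endothelial-like cells 2515 ± 771 and 3493 ± 608 CPM (0.38, SE 0.18), higher in 4 of 5 pairs. Immune and epithelial classes with little Sparc gave larger ratios: -2.69 in T cell-like cells, where the mean was 276 ± 166 CPM in control and 43.4 ± 30.6 CPM in expanded libraries, -2.65 in macrophage or monocyte-like cells, -2.26 (SE 0.44) in basal keratinocyte-like cells and -3.75 (SE 0.68) in a cluster led by Gzmc and Xcl1. The Sparc call in basal keratinocyte-like cells was lost without the control library of day 1 round 1, the expanded library of day 1 round 1, day 1 round 2 or day 2 round 2, or either day 4 library. Fibroblast markers moved in the same direction in these classes. Their sum was 490 to 2018 CPM in control and 32.6 to 259 CPM in expanded T cell-like libraries, and 254 to 8949 CPM and 27.2 to 1010 CPM in basal keratinocyte-like libraries. The share of T cell-like cells with a Sparc UMI after thinning was 37.1% in control and 7.00% in expanded libraries. Free RNA from fibroblasts as a part of these values was not tested.

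Spon1 (chr7:113765998-114043370, plus strand) encodes F-spondin, a secreted adhesive protein with thrombospondin repeats. Fibroblast-like cells had 12.6, 32.4, 18.4, 28.7 and 28.8 CPM of Spon1 in the control libraries in the order of day and round and 48.1, 68.9, 66.9, 127 and 124 CPM in the expanded ones. All expanded libraries were above all control libraries, with means of 24.2 ± 8.32 and 86.9 ± 36.0 CPM (SD, n = 5 each), a ratio of 3.59 and a log2 fold change of 1.53 (SE 0.26). Within the cluster led by Igfbp2 and Mme it was 0.51 and was not called. Spon1 was higher in the cluster led by Lrrc15 and Acan in 5 of 5 pairs (131 ± 43.5 and 321 ± 142 CPM; 1.23, SE 0.29) and in smooth muscle-like cells in 5 of 5 (26.2 ± 9.74 and 70.4 ± 29.2 CPM; 1.28, SE 0.30). The first call held only without the control library of day 2 round 1 or the expanded library of day 2 round 2 among the fits that left out 1 library, and the second was lost without either day 4 library. Dermal papilla-like cells, with means of 271 CPM (n = 3) and 294 CPM (n = 4), and the cluster led by Coch and Fmod, at 0.11, were near the same level in both arms. Thinned shares in fibroblast-like cells were 3.84% and 12.2%, against 0.343% and 0.348% in T cell-like cells.

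Spon2 (chr5:33198184-33218455, minus strand) encodes mindin, a spondin that binds integrins and bacterial surfaces and takes part in innate immunity. It had 85.0, 92.6, 96.6, 61.8 and 90.5 CPM in the control fibroblast-like libraries and 28.2, 6.77, 13.0, 6.01 and 4.43 CPM in the expanded ones. The arms were wide apart in every pair, and the expanded library of day 1 round 1 was the highest of its arm. The means of Spon2 were 85.3 ± 13.8 and 11.7 ± 9.77 CPM (SD, n = 5 each), a ratio of 0.137, with a log2 fold change of -3.07 (SE 0.39), and of -3.66 without the expanded library of day 1 round 1. Mean Spon2 was also lower within clusters: 102 and 18.4 CPM in control and expanded libraries in the cluster led by Col1a2 and Col1a1, 62.1 and 7.89 CPM in that led by Igfbp2 and Mme, and 87.5 and 13.9 CPM in that led by Cilp and Mfap4. A fit on the Igfbp2 and Mme cluster alone gave -3.00. The cluster led by Coch and Fmod had 3.82 to 11.2 CPM of Spon2 in control and 0 to 1.22 CPM in expanded libraries, and Schwann-like cells 39.8 ± 13.1 and 8.16 ± 2.12 CPM (SD, n = 4 each) without overlap (-2.18, SE 0.35). Thinned to 2000 UMIs, 14.7% of control and 1.57% of expanded fibroblast-like cells had a Spon2 UMI, and T cell-like cells 0.250% and 0%. The 2 spondins thus had opposite directions in the same fibroblast-like libraries.

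Fn1 (chr1:71585520-71653200, minus strand) encodes fibronectin, the adhesive glycoprotein of provisional wound matrix. It was lower in fibroblast-like and higher in macrophage or monocyte-like cells. Fibroblast-like libraries had 561, 579.8, 557, 247 and 647 CPM of Fn1 in control and 216, 308, 175, 113 and 331 CPM in expanded samples. Every pair was lower, and the arms overlapped through the control library of day 2 round 2. The ratio of the means (518 ± 156 and 229 ± 91.1 CPM, SD, n = 5 each) was 0.441, with a log2 fold change of -1.47 (SE 0.24). A fit on the cluster led by Igfbp2 and Mme gave -1.63 (SE 0.26). Mean Fn1 went the other way in the cluster led by Apod and Gpc3, at 591 ± 134 CPM in control and 863 ± 500 CPM in expanded libraries (SD), with overlapping spread.

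For macrophage or monocyte-like cells, Fn1 stood at 61.8, 71.8, 53.1, 206 and 105.5 CPM in control and at 618, 382, 463, 487.5 and 217 CPM in expanded libraries. No expanded library was below a control one, and the means were 99.5 ± 62.5 and 433 ± 148 CPM (SD, n = 5 each), a ratio of 4.35 (log2 fold change 2.01, SE 0.36). Within the cluster led by Chil3 and Arg1, the 2 control libraries had 400.4 and 496 CPM of Fn1 and the 5 expanded ones 244 to 1293 CPM, which overlapped. In the C1q cluster the means were 41.1 ± 23.6 (SD, n = 5) and 55.6 ± 54.7 CPM (SD, n = 3). Dendritic-like cells had 284 ± 72.1 and 91.2 ± 44.3 CPM without overlap (-1.94, SE 0.33), and the cluster led by Coch and Fmod had -1.66 (SE 0.24). Melanocyte-like cells had 113.5 ± 35.1 CPM (SD, n = 4) and 540.5 ± 173 CPM (SD, n = 3), apart. Thinned to 2000 UMIs, a Fn1 UMI was found in 45.6% of control and 24.8% of expanded fibroblast-like cells and in 8.01% and 32.9% of macrophage or monocyte-like cells, against 0.706% and 0.311% of T cell-like cells. Reads of Fn1, Thbs1 and Tnc cannot be told from those of genes that overlap them on the other strand (Apol7d, Gm29233 and 8030451A03Rik), since whether counting used strand is not given in the sources used here.

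Hashtags allowed 8 of the libraries to be split by mouse, as far as cells could be assigned (43.0% of control and 29.6% of expanded fibroblast-like cells). With at least 20 fibroblast-like cells, 14 control and 8 expanded mice could be measured. Tnc ran from 4.47 to 711 CPM over the control mice (median 91.7) and from 387 to 3689 CPM over the expanded ones. On day 2 the means were 288 ± 302 CPM (SD, n = 7) and 2884 ± 836 CPM (SD, n = 3), and on day 4 they were 135 ± 85.5 and 2148 ± 428 CPM (SD, n = 4 each). Spon2 ran from 38.6 to 124 CPM over control and from 1.59 to 47.1 CPM over expanded mice (overlapping), and Sparc from 11451 to 29434 CPM and from 7055 to 14559 CPM. Spon1 had means of 36.3 ± 28.6 and 91.8 ± 45.8 CPM (SD). Spp1 in fibroblast-like cells had a median of 3.003 CPM over control mice and 40.3 CPM over expanded mice, with 1 mouse at 4735 CPM. Spp1 in macrophage or monocyte-like cells was at 6.12 to 168 CPM in 13 control mice and 102 to 3281 CPM in 12 expanded mice. Mice of an arm and round shared 1 reaction, so they are a description of spread between animals.

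**Figure D5:**
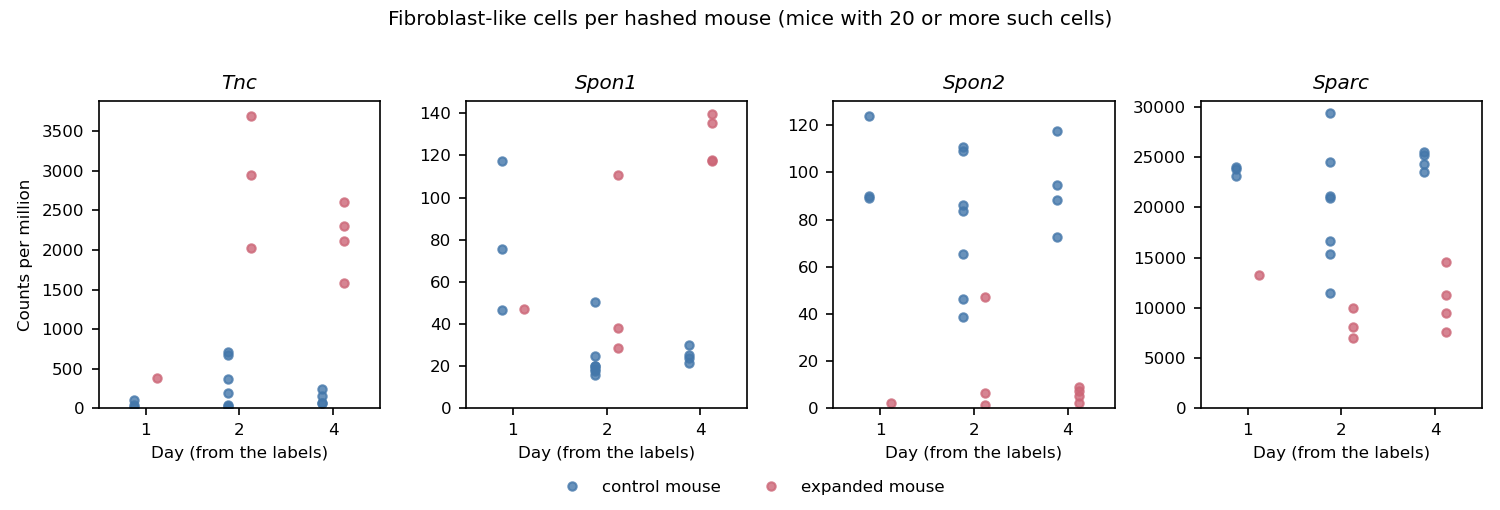
Levels (CPM) of Tnc, Spon1, Spon2 and Sparc in fibroblast-like cells are plotted per hashed mouse with at least 20 such cells against the day, with control mice in blue and expanded mice in red. Tnc was at or below 711 CPM in the 14 control mice and at or above 387 CPM in the 8 expanded mice.

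Whether the effect of expansion differed between day 1 and day 2 was tested with the arm-by-day interaction (edgeR quasi-likelihood test, Benjamini-Hochberg adjusted over all genes). No gene passed in fibroblast-like cells (0% of 14330 genes), in macrophage or monocyte-like cells (0% of 11806) or in the cluster led by Coch and Fmod (0% of 11429). At an unadjusted p below 0.05 there were 586, 393 and 442 genes. With 2 libraries per arm and day, the members with the smallest unadjusted p in these 3 classes were Postn in fibroblast-like cells (1.88, SE 0.43, unadjusted p = 0.00139, adjusted p = 0.999992) and Spp1 in macrophage or monocyte-like cells (-3.22, SE 0.73, unadjusted p = 0.00155, adjusted p = 0.999989). The negative sign means a smaller Spp1 difference on day 2 than on day 1. DESeq2 passed both, Postn at 1.89 and Spp1 at -3.24, among 12 and 14 genes in all, and passed 0 genes in the cluster led by Coch and Fmod. Tnc in fibroblast-like cells had -1.82 (SE 0.94, adjusted p = 0.999992).

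Receptors that bind these proteins were measured in the same fits. This list was chosen with earlier results of these data known, so the adjusted p-values of its genes are read as a description. Of 20 listed receptors, 19 were tested in fibroblast-like cells, 5 rose and 2 fell (edgeR, adjusted over all genes), with a median log2 fold change of -0.06 against 0.02 over all genes tested. Of all genes there 32.7% were called (16.2% higher, 16.4% lower), so the receptors' count is near the background. The integrin subunit Itgb8, which partners alpha v to release active TGF-β, rose by 2.24 (SE 0.57, adjusted p = 0.0123, higher in 5 of 5 pairs) from a mean of 0.836 CPM, a call lost without either day 4 library and at 0.34 in the Igfbp2 and Mme cluster alone. Sdc1, the syndecan that binds tenascins and fibronectin through its heparan sulfate, rose by 1.35 (SE 0.24, adjusted p = 0.0017), from 17.5 ± 3.11 to 54.7 ± 25.2 CPM (SD, n = 5 each). Itga5, the fibronectin receptor subunit, rose by 0.63 (adjusted p = 0.00884), Sdc4 by 0.57 (adjusted p = 0.0244) and Cd44, a receptor of osteopontin, by 0.54 (adjusted p = 0.0361). Each of these 4 was also higher in 5 of 5 pairs. The calls of Sdc4 and Cd44 were lost when single libraries were left out, and that of Itga5 when cells were thinned. Itgb5, a vitronectin and osteopontin receptor subunit, fell by 1.19 (SE 0.14, adjusted p = 0.000263) in 5 of 5 pairs, from 195 ± 44.3 to 99.97 ± 25.8 CPM (SD), and Itgb3 fell by 0.67 (adjusted p = 0.00907) in 4 of 5, a call lost without TMM scaling and in the Igfbp2 and Mme cluster alone. Of the receptors, 17 were tested in macrophage or monocyte-like cells: Itga8 (2.77) and Sdc1 (2.57) rose, and Itga9 (-1.40) and Sdc4 (-0.51) fell, with a median of 0.08 against 0.01 over all genes and a count near the 24.1% of all genes called. These 4 were named after their values were seen. Itga8 was low there, at 0.960 ± 0.675 CPM in control and 7.64 ± 10.7 CPM in expanded libraries (SD, n = 5 each). Without the expanded library of day 1 round 1 its log2 fold change was 1.87. The replicate block added 2 calls there, Stab1 and Tlr4.

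Other matricellular and related matrix genes also split. Their list too was chosen with earlier results known, so the adjusted p-values of its genes are read as a description. Of 30 listed, 22 were tested in fibroblast-like cells, 5 rose and 7 fell (edgeR, adjusted over all genes), with a median log2 fold change of 0.002 against 0.02 over all genes, of which 32.7% were called. Ccn2 (connective tissue growth factor) rose by 1.82 (SE 0.33, adjusted p = 0.00205), Ccn3 by 1.31 (adjusted p = 0.00284) and Ccn4 by 1.08 (adjusted p = 0.0172), each higher in 5 of 5 pairs. Ccn2 went from 53.0 ± 27.8 to 216 ± 55.8 CPM (SD, n = 5 each). In the Igfbp2 and Mme cluster alone, Ccn2 was at 1.16 and Ccn3 at 0.17, and neither was called, nor was Ccn4, whose call was also lost without the expanded library of day 2 round 1 or either day 4 library. Efemp1 fell by 1.23 (adjusted p = 0.000306), Tnxb, the tenascin of resting dermis, by 1.19 (SE 0.20, adjusted p = 0.00128), Fbln1 by 1.10 (adjusted p = 0.000645) and Thbs3 by 0.74 (adjusted p = 0.0069), lower in 5 of 5 pairs, or 4 of 5 for Thbs3. Lgals3 also rose, and Sparcl1, Tgfbi and Ecm1 also fell, with Lgals3 higher in 5 of 5 pairs, Sparcl1 lower in 4 of 5 and Tgfbi and Ecm1 lower in 3 of 5. The Lgals3 call was lost without either day 4 library, and those of Sparcl1, Tgfbi and Ecm1 each without any of several single libraries of both arms. Sparcl1 was at 0.38 with the cells of the cluster led by Coch and Fmod added. These 4, and those named next, were chosen after their values were seen. Of the same list, 13 were tested in macrophage or monocyte-like cells: 4 rose (Ccn3, Lgals3, Tgfbi and Lgals1) and 5 fell (among them Efemp1, Tnxb, Fbln1 and Fbln2), with a median of -0.92 against 0.01 over all genes, of which 24.1% were called. Efemp1, Tnxb, Fbln1 and Fbln2 are made by fibroblasts, whose summed markers were also lower there, as given above, and their part was not tested. Tnc and Tnxb, 2 tenascins, had opposite directions in fibroblast-like cells.

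The genes whose pattern was most like each member were found over 197 sums of a class in a library, by Pearson correlation of log2(CPM + 1) across those sums, which share libraries and depth. Tnc was most like Kirrel (r = 0.769), Azin2 (0.765) and Antxr1 (0.761), and Tnn like Spock1 (0.859), Lrrn1 (0.850) and Foxd1 (0.843). Sparc followed Fbn1 (0.893), Serpinh1 (0.881) and Col5a2 (0.878), and Thbs2 followed Antxr1 (0.865), Col5a2 (0.845) and Fbn1 (0.843). Postn was most like Fzd2 (0.862), Robo2 (0.838) and Gas1 (0.834), and Spon1 like Egflam (0.863), Col6a3 (0.851) and Nfatc4 (0.828). The looser patterns were those of Spp1 (Fth1, 0.598, Nfkbie, 0.567, and Card19, 0.564), Fn1 (Pdpn, 0.664, Ctsl, 0.656, and Dab2, 0.637), Spon2 (Opcml, 0.689, Vit, 0.676, and Efs, 0.667) and Thbs1 (Steap4, 0.705, Xdh, 0.669, and Map3k20, 0.662).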

How the data were processed

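Single cells of skin from the 2 arms were measured in 10 mRNA libraries. The deposited matrices hold UMI counts per gene and barcode, without normalization, which the authors made with Cell Ranger 6.1.2 and mm10 per the submitters' processing notes. The 10 genes and the 2 gene lists were chosen with earlier results of these data known. Planned for naming beyond the 10 genes were list genes called in fibroblast-like cells, at most the 8 with the largest absolute log2 fold change per list. For each member the 3 genes most like it were planned as well. Further list genes were named after their values were seen. 1 gene of the lists is counted but not reported here.

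Of 55174 barcodes, 47251 passed the filters: a minimum of 200 genes, a minimum of 500 UMIs, and no more than 10% of UMIs from mitochondrial genes. Scrublet and multiple hashtags marked 1771 doublets, which were removed. Scrublet marked 0.0292% to 2.96% of the cells of a library. Cells were clustered with scanpy 1.11.5 and leidenalg 0.10.2 (Python 3.11.15; 2000 variable genes without the 6 members among them, 30 components, 15 neighbors, resolution 1.2, set while clusters were examined). Clusters were named by marker lists, and the names are rebuilt, not the authors'. A marker counted when found in at least 10% of a cluster's cells and 2-fold above the others. A name needed 3 such markers, a score of 0.4 and a lead of 0.1 over the next class. With a smaller lead it needed 3 markers among the 10 leading genes and more than the next class had, which named the suprabasal keratinocyte-like cluster (next class basal keratinocyte) and the smooth muscle-like one (next class pericyte, and led by Rgs5).

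Counts were summed per class and library with at least 20 cells. CPM divides by all gene UMIs of the sum. Tests used edgeR 4.0.16 in R 4.3.3 (quasi-likelihood, TMM, filterByExpr, day as covariate) in classes with at least 4 libraries per arm. The scripts were tested on simulated data. Alternatives were DESeq2 1.42.0, no TMM, no filter, a replicate block, thinned cells, the Coch and Fmod cluster added to the fibroblast-like class, the Igfbp2 and Mme cluster alone, a minimum of 50 cells, both day 4 libraries left out of the interaction and each library left out; the single-cluster fit was chosen after seeing the data. Libraries of the 2 arms are paired by day and round per the labels, and deviations from the arm means within a day correlated at 0.04 to 0.32 over classes. Mice were assigned with HTODemux (Seurat 5.3.0, quantile 0.99), 21033 cells. A ratio rule (a leading hashtag of 10 or more counts and 3 times the next) gave 23662, with 20191 given to the same mouse by both and 12 to a different one. Gene coordinates are GENCODE's for GRCm38, the build that mm10 names.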

Additional observations from a re-analysis of the deposited data

Results flagged for a closer look

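In groups of 5 libraries, the highest or lowest library was tested for its gap to the others, and 9 of 59 groups of member levels held such a library. The nominal rate of about 1 in 20 assumes independent values with a normal spread. These groups share libraries and span days 1, 2 and 4, so no excess is read from the count. In fibroblast-like cells these were the expanded day 4 library for Spp1 (2312 CPM, with 94.9% of the UMIs in 10 cells) and the control library of day 2 round 2 for Fn1 (247 CPM, the lowest of its arm).

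In macrophage or monocyte-like cells, the expanded library of day 1 round 2 stood above the rest for both Spp1 (3122 CPM) and Thbs1 (4190 CPM), and the control library of day 2 round 2 for Thbs1 (932 CPM). In that control library the Chil3 and Arg1 cluster held 41.5% of the class, the highest share of the control libraries.

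In the unnamed cluster led by Coch and Fmod, the control library of day 2 round 2 was the highest for Tnc (278 CPM), the expanded library of day 2 round 1 for Spp1 (18.3 CPM) and the expanded day 4 library for Sparc (4803 CPM). The control library of day 2 round 1 was the lowest for Spon1 (32.8 CPM).

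Fn1 went in opposite directions in 2 classes. Its ratio of expanded to control means was 4.35 in macrophage or monocyte-like cells, with all 5 pairs higher, and 0.441 in fibroblast-like cells, with all 5 pairs lower. The difference between the classes was not tested.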

How the results depend on the processing

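Counts of called genes for the members and both lists stayed within 1.5 times of those given in all alternatives run, with these exceptions. Called receptors in macrophage or monocyte-like cells were 2 in place of 4 with each cell thinned to 2000 UMIs. Called members in the cluster led by Coch and Fmod were 7 in place of 4 without the filter on low counts. For the difference between day 2 and day 1, called members in fibroblast-like cells were 1 with DESeq2 (Postn) and 2 without the filter (Postn and Tnc), and in macrophage or monocyte-like cells 1 with DESeq2 (Spp1) and 2 without the filter (Spp1 and Thbs1), in place of 0. Sparcl1 in fibroblast-like cells reversed to 0.38 with the cells of the cluster led by Coch and Fmod added (-0.66 without). The share of control fibroblast-like cells with a Tnc UMI was 9.70% unthinned and 4.87% thinned. Over all genes, the fit on thinned cells made 2265 calls in place of 4408 in fibroblast-like cells and 1704 in place of 2650 in macrophage or monocyte-like cells. In the cluster led by Coch and Fmod it made 509 in place of 1217. Thinned cells leave fewer counts per gene, and fewer genes were tested.

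Leaving out each library gave 6 called members in fibroblast-like cells each time, 5 to 7 receptors and 8 to 11 other matricellular genes. The macrophage or monocyte-like class then had 4 to 5 members, 3 to 6 receptors and 6 to 10 other matricellular genes, and in the cluster led by Coch and Fmod 4 to 5 members. With the replicate block, the counts were 6, 7 and 12 in fibroblast-like cells, 8, 6 and 9 in macrophage or monocyte-like cells and 5 members in the cluster led by Coch and Fmod, where calls over all genes went from 1217 to 1924. The block left the interaction at 0 members in each. Without TMM the median log2 fold change of all genes moved by 0.24 in fibroblast-like, 0.21 in dendritic-like and 0.10 in macrophage or monocyte-like cells. Classes with few cells limit what was detectable, since a member with too few counts was not tested.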
